A study of Homo sapiens with 16 samples.

Results

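KMS27 is a human multiple myeloma cell line, grown from a patient's malignant plasma cells, that carries the translocation t(11;14) and is sensitive to venetoclax before selection. Clones B5 and C5 were each grown from a single KMS27 cell that survived high-dose venetoclax, and both were kept in 100 nM venetoclax in RPMI-1640 with fetal bovine serum. Poly-A RNA of each clone was sequenced in 2 libraries, so the comparison rests on 4 of the 16 libraries and 2 of the 8 cell populations of the series. These libraries were chosen by their column names (C5 against B5), and no parental library entered the comparison. The question is how far 2 resistant clones of the same line differ from each other. Both carry the line's genome, the selection and the drug, and each stands for the descendants of 1 cell. The labels do not say whether the 2 libraries of a clone came from separate cultures, so the p-values measure the spread between libraries, which may be technical.

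Venetoclax fits into the groove with which BCL2 holds pro-death proteins such as BIM, and thereby frees them to open the mitochondrial outer membrane. The related proteins MCL1 and BCL-XL hold the same partners, and a myeloma cell that relies on them can survive the drug. Plasma cells also carry surface proteins that antibodies and engineered T cells are directed to. CD38, an enzyme on the cell surface that consumes NAD, is the target of daratumumab, BCMA (gene TNFRSF17) and SLAMF7 are others, and CD20 (gene MS4A1) is a B cell protein that most plasma cells have lost. MHC class II molecules show peptides to CD4+ T cells and are also mostly shut off when a B cell becomes a plasma cell.

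The plasma cell label was checked first. JCHAIN, which links antibody units, was at 2796 and 4618 CPM (counts scaled to a common library size) in B5 and at 1889 and 1978 CPM in C5. IRF4, the transcription factor that keeps plasma cells alive, was at 1849.6 and 1967 CPM in B5 and at 1549 and 1483 CPM in C5. SDC1, PRDM1, XBP1, MZB1 and TNFRSF17 were at 80.9 CPM or more in all 4 libraries, and CD38 was the marker that departed from this in C5. Of the defining markers of other cells, 4 of 18 for T and NK cells, 2 of 16 for myeloid cells, 3 of 16 for stromal and epithelial cells and 0 of 10 for erythroid cells had enough counts to be tested. Summed levels were 95.04 and 107 CPM in B5 and 67.6 and 71.5 CPM in C5 for the T and NK list, most of it from TRBC2. They were at most 2.52 CPM in any library for the myeloid list, and ran from 22.7 to 35.7 CPM for the stromal and epithelial list, most of it from CDH1.

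Total counts were 22078324 and 20257318 in B5 and 28166303 and 24154558 in C5, and 3 counts, the least read as present, were worth 0.104 to 0.163 CPM. The 2 libraries of B5 stood further apart than those of C5. Of the 9132 genes with at least 3 log2 CPM on average, 10.7% differed over 1.5-fold between the B5 libraries and 0.548% between the C5 libraries. Correlations of log2 CPM over genes were 0.974 between the B5 libraries, 0.990 between the C5 libraries, and 0.974 and 0.967 between clones for libraries of the same number. The difference between the B5 libraries followed the length of the genes (Spearman rho -0.54 over 8823 genes, library 2 minus library 1), and so did that between the C5 libraries (rho -0.37). For C5 minus B5 the rho was 0.25, and it was 0.03 between the libraries numbered 1 and 0.34 between those numbered 2. Genes called higher in C5 had a median exon length of 4116 bases and those called lower 4457 bases, beside 3568 bases for all genes tested. The part of length in the calls was not tested.

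Of 13417 genes tested, 329 (2.45%) passed an adjusted p of 0.05, 169 of them higher in C5 (1.26%) and 160 lower (1.19%). Adjusted p-values are Benjamini-Hochberg values of edgeR's quasi-likelihood test, and each log2 fold change is C5 minus B5 with its standard error (SE). A difference of at least 2-fold was found for 123 of the higher and 121 of the lower genes (together 1.82% of genes tested), and of at least 4-fold for 45 and 57 (0.76%). The median log2 fold change of all genes was -0.01. In all 329 genes the 2 libraries of a clone lay on the same side of both libraries of the other, which was also so for 25.4% (above) and 23.7% (below) of all genes tested. The number of calls depended on the libraries. It was 88 without C5 library 1, 130 without C5 library 2, 3813 without B5 library 1 and 2207 without B5 library 2, and all 329 kept their direction in each of these fits. Of the 86 called genes described here, 44 stayed called without C5 library 1, 44 without C5 library 2, and all 86 without either B5 library.

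**Figure D1:**
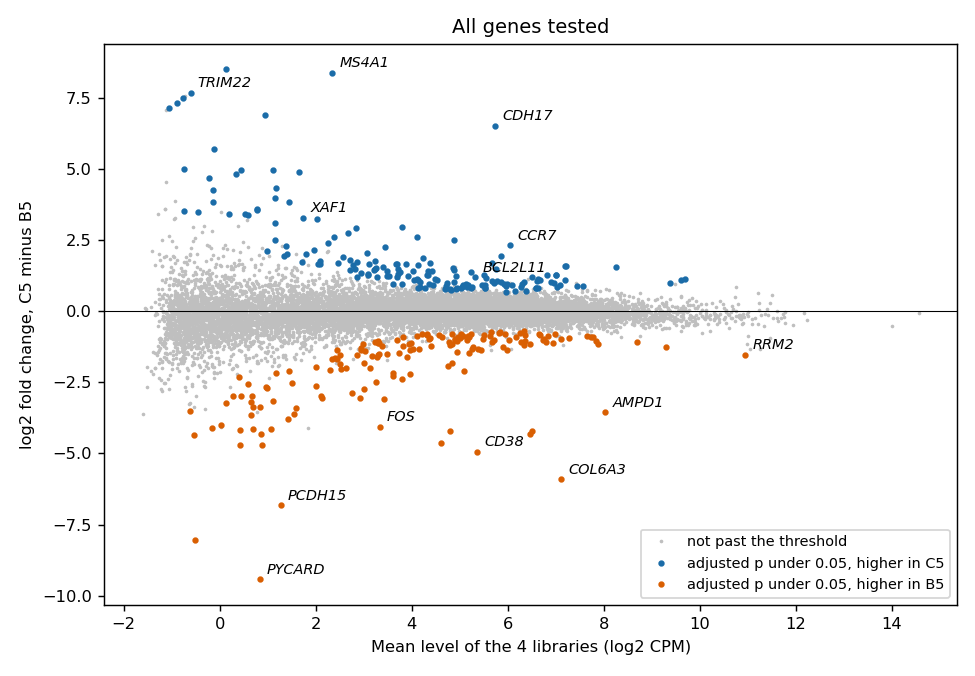
Log2 fold change of C5 over B5 (vertical axis) against the mean level of the 4 libraries in log2 CPM (horizontal axis) for the 13417 genes tested. The 169 blue genes were higher in C5 and the 160 orange genes higher in B5, and CD38, COL6A3, MS4A1 and CDH17 lie far from the grey genes of like level. Values of genes with 0 counts in a clone (TRIM22, PYCARD) depend on the prior count of the fit.

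CD38 nearly disappeared from C5. The gene, at chr4:15778275-15853230 (GRCh38, plus strand), was at 82.6 and 76.6 CPM in B5 and at 2.42 and 2.77 CPM in C5. The log2 fold change was -4.94 (SE 0.17, adjusted p = 0.000104), the lowest adjusted p of any gene, shared with COL6A3 and HAS2. Both C5 libraries lay far below both B5 libraries, and the call held when any of the 4 libraries was left out. Scaled together with clone C1, the third resistant clone of the line, CD38 was at 78.8 and 98.7 CPM in C1, next to B5 and not to C5. In bulk RNA, fewer cells with CD38 and less CD38 RNA per cell cannot be told apart.

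CD20 went the other way. MS4A1 had 1 count over both B5 libraries and 517 over both C5 libraries, that is 0.0430 and 0 CPM against 9.48 and 9.89 CPM (adjusted p = 0.00217). The ratio was 403, with an exact 95% interval of 71.9 to 15930 that covers counting error only. In C1, on the scaling of the 3 clones, MS4A1 was at 0.595 and 0.155 CPM. FCRLA, an intracellular B cell protein related to Fc receptors, had 0 counts in B5 and 0.657 and 1.22 CPM in C5 (adjusted p = 0.0477). Against 3 counts over the clone it was 12.7-fold higher in C5, with an exact 95% lower limit of 9.96. Its call was lost without C5 library 1 (adjusted p = 0.0641) and without C5 library 2 (0.187).

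Of the other surface targets of myeloma treatment, TNFRSF17, SLAMF7, SDC1 and CD46 did not pass edgeR's test on these 4 libraries. TNFRSF17 was at 115 and 148 CPM in B5 and at 85.0 and 80.9 CPM in C5 (log2 fold change -0.66, SE 0.16, adjusted p = 0.103). SLAMF7 was at 828 and 827 CPM in B5 and at 913 and 1002 CPM in C5 (0.21, SE 0.18, adjusted p = 0.604). SDC1, the syndecan CD138, was at 299.95 and 312 CPM in B5 and at 195 and 205 CPM in C5 (-0.62, SE 0.15, adjusted p = 0.0977). In all 3 genes the libraries of the clones did not overlap, and none passed the threshold. Of all genes tested, 25.4% lay wholly above in C5 and 23.7% wholly below. TNFRSF17 and SDC1 did pass, at like log2 fold changes (-0.67 to -0.61), with the 6 clone libraries in the fit (adjusted p = 0.0461 and 0.0386), with all 8 KMS27 libraries (0.0337 and 0.0168) and with DESeq2's Wald test (0.0117 and 0.00132). CD46, a complement regulator, differed by -0.11 (SE 0.15, adjusted p = 0.78). Over the list of 14 tested antibody and CAR T cell targets, MS4A1 rose, CD38 fell, and the median log2 fold change was -0.11.

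CD38 was also alone among the NAD and adenosine enzymes: it fell, and the other 19 of 20 tested genes were not called (median 0.14). Among 26 genes known to control CD38 transcription, PPARA, a nuclear receptor for fatty acids, rose from 18.6 and 17.9 CPM to 35.0 and 32.3 CPM (0.88, SE 0.14, adjusted p = 0.0309). The call was lost without C5 library 1 (adjusted p = 0.337) and without C5 library 2 (0.176). The remaining 25, including the retinoic acid receptor RARA (0.75) and the histone demethylase KDM6A (-0.63), did not pass.

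**Figure D2:**
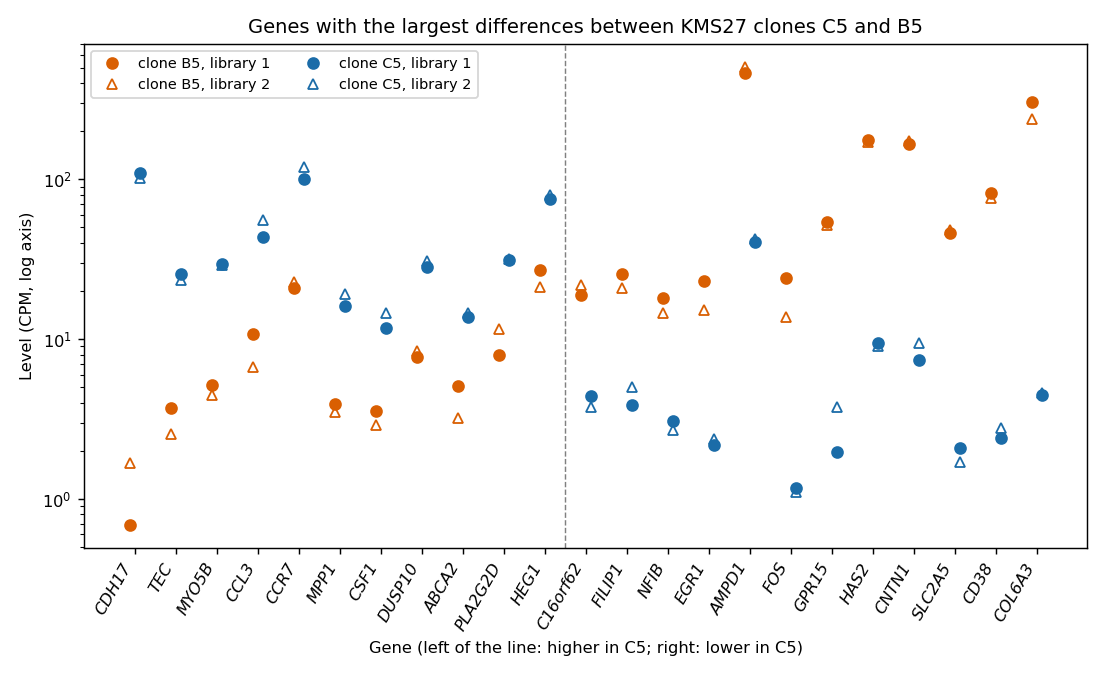
Level in CPM (vertical log axis) of 11 of the 12 called genes that rose most in C5 (left) and the 12 that fell most (right), among genes of at least 3 log2 CPM on average, with 1 point per library. In every gene the 2 orange B5 points and the 2 blue C5 points lie apart, which was a condition of the choice.

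COL6A3, a chain of type VI collagen at chr2:237324003-237414375, was at 305 and 240 CPM in B5 and at 4.46 and 4.60 CPM in C5 (log2 fold change -5.91, SE 0.21, adjusted p = 0.000104). HAS2, which makes hyaluronan, fell from 176 and 171 CPM to 9.44 and 9.11 CPM (-4.23, SE 0.15, adjusted p = 0.000104). CNTN1, a contactin of nerve cell contacts, fell from 166 and 173 CPM to 7.44 and 9.48 CPM (-4.33, SE 0.18, adjusted p = 0.000183). All 3 were still detected in C5, and the 2 libraries of each clone lay on the same side.

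SLC2A5, the fructose transporter, fell from 46.5 and 48.3 CPM to 2.08 and 1.71 CPM (-4.64, SE 0.18, adjusted p = 0.000153). GPR15, a receptor that guides lymphocytes to the gut, fell from 53.9 and 52.1 CPM to 1.97 and 3.78 CPM (-4.21, SE 0.29, adjusted p = 0.00247). AMPD1, an AMP deaminase best known from muscle, fell from 462 and 506 CPM to 40.4 and 42.5 CPM (-3.55, SE 0.17, adjusted p = 0.000399). Both C5 libraries lay far below both B5 libraries in all 3. The transcription factor NFIB (-2.49), the filamin-binding FILIP1 (-2.38) and C16orf62 (-2.30) also fell, with adjusted p-values of 0.00655, 0.00686 and 0.00541. None of these 9 calls was lost when any library was left out.

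CDH17, a cadherin of the liver and intestine, had the largest rise among genes with at least 3 log2 CPM on average. It was at 0.688 and 1.68 CPM in B5 and at 109.5 and 102 CPM in C5 (6.52, SE 0.32, adjusted p = 0.000459). TEC, a tyrosine kinase of blood cells, rose from 3.70 and 2.55 CPM to 25.4 and 23.5 CPM (2.95, SE 0.22, adjusted p = 0.0037). MYO5B, a myosin that moves vesicles, rose from 5.16 and 4.46 CPM to 29.6 and 29.3 CPM (2.61, SE 0.17, adjusted p = 0.00217). For each of them both C5 libraries lay far above both B5 libraries, and none of the 3 calls was lost when any library was left out.

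The membrane scaffold protein MPP1 (2.25), DUSP10, a phosphatase of stress kinases (1.88), the secreted phospholipase PLA2G2D (1.69) and the junction protein HEG1 (1.68) also rose, with adjusted p-values of 0.00686, 0.00541, 0.0145 and 0.00878. DUSP10 was at 7.70 and 8.37 CPM in B5 and at 28.3 and 30.6 CPM in C5. ABCA2, a lipid transporter, rose from 5.08 and 3.21 CPM to 13.8 and 14.6 CPM (1.77, SE 0.26, adjusted p = 0.0253), and its call was lost without C5 library 1 (adjusted p = 0.0661). It was the 1 called gene among 22 ABC transporters (median 0.13).

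In the list of 31 integrins and adhesion molecules 2 rose and 4 fell, with a median of 0.02. The share called was 19.4%, beside 2.45% of all genes tested. ITGAL, the alpha chain of LFA-1, was at 579 and 553 CPM in B5 and at 255 and 281 CPM in C5 (-1.08, SE 0.16, adjusted p = 0.0267). ITGA4, the alpha chain of VLA-4 that binds myeloma cells to stroma, was at 117 and 92.3 CPM in B5 and at 54.0 and 45.4 CPM in C5 (-1.07, SE 0.17, adjusted p = 0.0316). CDH1, which encodes E-cadherin, fell from 27.0 and 27.1 CPM to 13.7 and 13.9 CPM, and NCAM2 from 7.79 and 7.93 CPM to 2.70 and 3.38 CPM. In these 4 genes both C5 libraries lay below both B5 libraries.

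CD58, the ligand of CD2 on T and NK cells, rose from 39.8 and 31.7 CPM to 75.7 and 71.6 CPM (1.04, SE 0.16, adjusted p = 0.0267). SPARC, a matrix protein, rose from 1.89 and 2.06 CPM to 5.67 and 6.92 CPM. All 6 calls of the list were lost without C5 library 1 (adjusted p from 0.116 for ITGA4 to 0.541 for ITGAL) and without C5 library 2 (0.0691 for CD58 to 0.338 for SPARC). The beta chains ITGB7 (-0.41) and ITGB1 (-0.08) did not pass.

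Type I and type II interferons act through receptors on a common set of genes that sense viral RNA, block its translation or call in T cells. Many of them carry an interferon-stimulated response element near their start. It was searched as GAAANNGAAA, or TTTCNNTTTC on the other strand, in the 250 bases before each start in RefSeq (GRCh38.p14). Of 35116 promoters 3.02% held it, and of the tested genes with an entry 3.41% did. Among the 9 interferon genes called between the clones it was present in 5 of the 7 with an entry (CXCL10, IFI44, IFIH1, IFIT3 and IFIT5), and among the tested interferon genes that were not called in 8 of 16. A pair of called genes is shown because their matches lie at different distances, with the matches in capitals. For IFIT5 (chr10:89414318-89414567, plus strand) they begin 45 and 19 bases before the start, and for CXCL10 (chr4:76023498-76023747, minus strand) 221 bases before it.
IFIT5: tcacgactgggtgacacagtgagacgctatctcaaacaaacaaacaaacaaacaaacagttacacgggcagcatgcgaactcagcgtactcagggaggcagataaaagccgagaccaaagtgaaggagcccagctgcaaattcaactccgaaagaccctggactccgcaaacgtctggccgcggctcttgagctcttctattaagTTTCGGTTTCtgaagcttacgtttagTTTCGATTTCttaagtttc
CXCL10: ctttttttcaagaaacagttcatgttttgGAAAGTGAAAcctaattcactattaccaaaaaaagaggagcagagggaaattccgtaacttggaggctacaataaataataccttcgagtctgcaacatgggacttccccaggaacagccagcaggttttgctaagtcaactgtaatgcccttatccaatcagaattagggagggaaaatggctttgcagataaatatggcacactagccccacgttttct

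Of the 32 interferon-stimulated genes tested, 9 (28.1%) rose in C5 and none fell, beside 1.26% and 1.19% of all genes tested. The median was 0.81, beside -0.01 for all genes, and 27 had a log2 fold change above 0. The called genes included sensors of viral RNA and enzymes they work with. IFIH1, which encodes the RNA sensor MDA5, was at 40.7 and 41.6 CPM in B5 and at 74.8 and 85.9 CPM in C5 (0.97, SE 0.14, adjusted p = 0.0241). OAS2, an enzyme that activates RNA decay on meeting double-stranded RNA, was at 62.9 and 60.5 CPM in B5 and at 125 and 146 CPM in C5 (1.14, SE 0.14, adjusted p = 0.0165). Its neighbour OAS1 was at 26.0 and 29.1 CPM in B5 and at 44.5 and 53.8 CPM in C5 (0.83, SE 0.16, adjusted p = 0.0472). In each of the 3 both C5 libraries were higher, and C5 library 2 was the highest.

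IFIT3 and IFIT5, of a family of antiviral RNA-binding proteins, were low in B5. IFIT3 was at 1.59 and 1.25 CPM in B5 and at 5.64 and 11.8 CPM in C5 (2.61, SE 0.42, adjusted p = 0.033). IFIT5 was at 0.301 and 0.163 CPM in B5 and at 1.80 and 3.21 CPM in C5 (3.37, SE 0.55, adjusted p = 0.0349). XAF1, an antagonist of the caspase inhibitor XIAP, rose from 0.430 and 0.761 CPM to 5.12 and 6.35 CPM (3.28, SE 0.39, adjusted p = 0.0145). In all 3 genes C5 library 2 was the highest, and for IFIT3 and IFIT5 the C5 libraries were well apart.

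IFI44 had 3 counts in B5 and 78 in C5, a ratio of 20.2 (exact 95% interval 6.68 to 100.3, adjusted p = 0.0274). TRIM22, an antiviral ubiquitin ligase, had 0 counts in B5 and 56 in C5 (adjusted p = 0.0472). Against 3 counts over the clone it was 14.5-fold higher in C5, with an exact 95% lower limit of 11.4. CXCL10, a chemokine that draws T cells, rose from 2.67 and 3.91 CPM to 9.27 and 10.9 CPM (1.62, SE 0.27, adjusted p = 0.0361). All 3 were low in B5, 2 of them at or near the limit of detection, and no higher than 10.9 CPM in C5.

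Of these 9 calls only that of XAF1 was kept in every fit that left out a library. Without C5 library 2 the other 8 had adjusted p-values from 0.0935 (OAS2) to 0.499 (OAS1), and without C5 library 1 OAS1 (0.169), CXCL10 (0.126), IFIH1 (0.106) and IFI44 (0.0842) were lost. With DESeq2's size factors in edgeR OAS1 just missed the threshold (0.0502). The log2 fold changes of all 9 stayed above 0 in each fit. IFI6 (1.25, adjusted p = 0.0819), DDX58, which encodes the sensor RIG-I (2.26, adjusted p = 0.0821), ISG15 (1.05, adjusted p = 0.145) and DTX3L (0 counts in B5, adjusted p = 0.0653) did not pass. The 5 genes below 0 were IFITM1, IFITM2, BST2, GBP5 and SAMD9, the lowest at -0.27. The type I receptor chains IFNAR1 and IFNAR2 were not called.

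**Figure D3:**
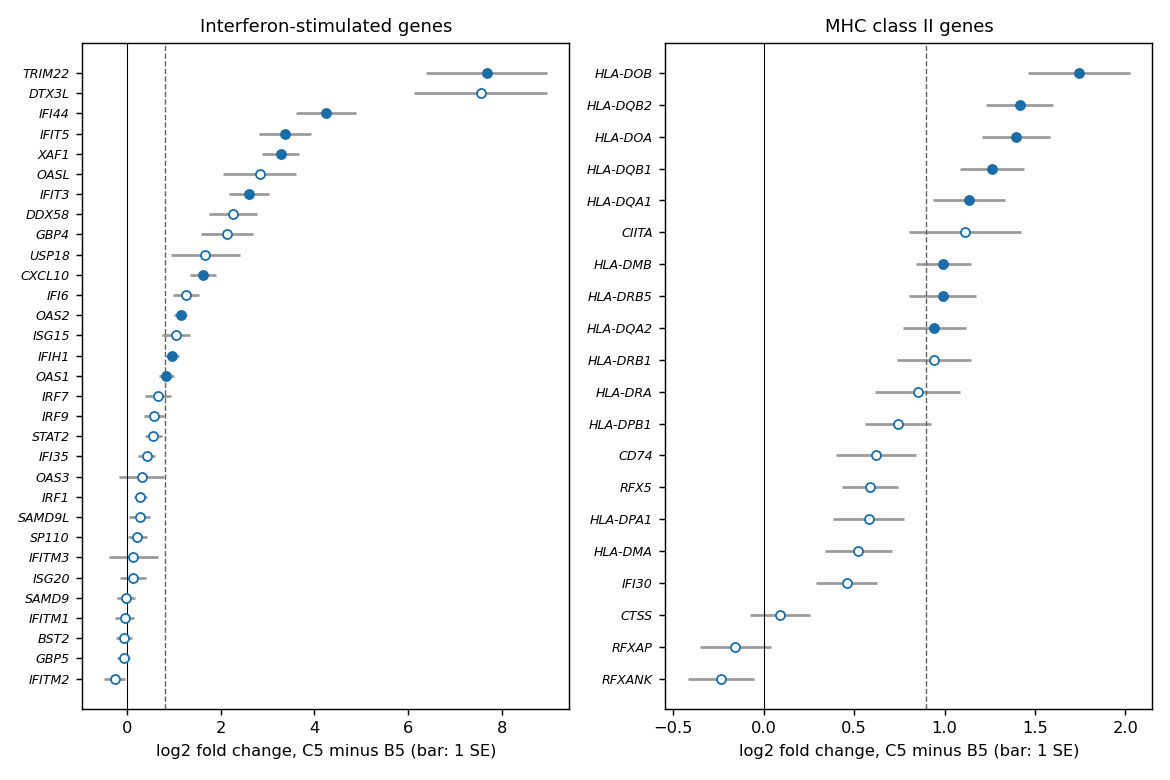
Log2 fold change of C5 over B5 with 1 SE for 31 of the 32 interferon-stimulated (left) and all 20 MHC class II (right) genes tested, with called genes as filled points and the median of the whole list as a dashed line. Most points lie right of 0, with 26 of 31 and 18 of 20 above it. TRIM22 and DTX3L had 0 counts in B5, so their positions depend on the prior count of the fit.

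MHC class II genes share a promoter with a conserved order of elements. The last of them is an inverted CCAAT box that binds the factor NF-Y, and the coactivator CIITA sits on the assembly and sets its strength. CCAAT or its reverse ATTGG was found in the same 250-base windows in 32.0% of all promoters and 42.9% of the tested genes with an entry, in 8 of the 8 class II genes that rose and in 6 of the 9 other tested class II genes with an entry. HLA-DQB1 (chr6:32666658-32666907, minus strand) and HLA-DOB (chr6:32817003-32817252, minus strand) are shown because both hold an ATTGG followed by a CCAAT, in capitals, which begin 88 and 64 bases before the start in HLA-DQB1 and 98 and 74 bases before it in HLA-DOB.
HLA-DQB1: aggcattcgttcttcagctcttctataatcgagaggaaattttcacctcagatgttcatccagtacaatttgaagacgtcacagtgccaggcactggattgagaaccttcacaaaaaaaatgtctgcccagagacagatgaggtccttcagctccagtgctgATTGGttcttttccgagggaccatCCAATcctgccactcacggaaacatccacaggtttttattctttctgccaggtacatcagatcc
HLA-DOB: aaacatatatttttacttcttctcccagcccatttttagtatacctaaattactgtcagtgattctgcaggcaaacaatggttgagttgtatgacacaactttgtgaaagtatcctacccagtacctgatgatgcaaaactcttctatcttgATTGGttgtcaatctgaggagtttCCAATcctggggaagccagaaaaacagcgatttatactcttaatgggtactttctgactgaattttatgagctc

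Of the 20 class II genes tested 8 (40%) rose in C5 and none fell, beside 1.26% and 1.19% of all genes tested. The median was 0.90. In 17 both C5 libraries lay above both B5 libraries, beside 25.4% of all genes tested. The peptide-presenting chains came first. HLA-DQA1 was at 457 and 580 CPM in B5 and at 1098 and 1184 CPM in C5 (1.14, SE 0.20, adjusted p = 0.0398). HLA-DQB1 was at 64.9 and 85.4 CPM in B5 and at 170 and 191 CPM in C5 (1.26, SE 0.18, adjusted p = 0.0229). HLA-DRB5 was at 70.1 and 96.8 CPM in B5 and at 160 and 171 CPM in C5 (0.99, SE 0.19, adjusted p = 0.0477). HLA-DQA2 (0.94) and HLA-DQB2 (1.42) also rose. These genes have near-identical copies in the region, and the assignment of their shared reads is not given in the sources used here.

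Chains that edit the peptide rose as well. HLA-DOA, a chain of HLA-DO, which restrains the peptide exchanger HLA-DM, was at 9.64 and 8.04 CPM in B5 and at 20.9 and 25.7 CPM in C5 (1.39, SE 0.19, adjusted p = 0.0205). Its partner HLA-DOB was at 1.98 and 1.79 CPM in B5 and at 5.74 and 6.96 CPM in C5 (1.75, SE 0.28, adjusted p = 0.0323). HLA-DMB, a chain of HLA-DM itself, was at 16.4 and 19.1 CPM in B5 and at 34.1 and 36.7 CPM in C5 (0.99, SE 0.15, adjusted p = 0.0267). HLA-DMA differed by 0.52 and did not pass.

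Other class II genes were higher in both C5 libraries without passing. CD74, the invariant chain, was at 1769.7 and 1957 CPM in B5 and at 2526 and 3207 CPM in C5 (0.62, SE 0.22, adjusted p = 0.218). HLA-DRA was at 1042 and 1432 CPM in B5 and at 2054 and 2407 CPM in C5 (0.85, SE 0.23, adjusted p = 0.131). CIITA was at 73.1 and 35.3 CPM in the B5 libraries, more than 2-fold apart, and at 117 in both C5 libraries (1.11, SE 0.31, adjusted p = 0.133). Without C5 library 2 all 8 calls were lost (adjusted p from 0.0563 for HLA-DQB1 to 0.423 for HLA-DQA1), and without C5 library 1 all but HLA-DOA (0.0338) and HLA-DQB1 (0.0496). With DESeq2's size factors in edgeR HLA-DRB5 just missed the threshold (adjusted p = 0.0502). Without B5 library 1 the count was 17 of 20 and the median 0.70, and without B5 library 2 the median was 1.04. None of 21 MHC class I and peptide-loading genes was called (median -0.07).

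Of 36 chemokines, cytokines and receptors tested 8 rose and 2 fell (27.8%, beside 2.45% of all genes tested). The median was 0.16. Among the ligands, CCL3, which attracts monocytes and drives bone resorption in myeloma, was at 10.8 and 6.74 CPM in B5 and at 43.8 and 55.4 CPM in C5 (2.49, SE 0.25, adjusted p = 0.00926). CCL5 rose from 6.97 and 10.0 CPM to 24.2 and 27.9 CPM (1.62, SE 0.21, adjusted p = 0.0184). CSF1, the growth factor of macrophages, rose from 3.53 and 2.88 CPM to 11.8 and 14.6 CPM (2.03, SE 0.24, adjusted p = 0.0139). None of these 3 calls was lost when any library was left out. VEGFB (1.09), TNFSF10, the death ligand TRAIL (1.52), and CXCL10 also rose, and IL16 fell by 0.81 on the log2 scale.

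Among the receptors, CCR7, which leads lymphocytes into lymph nodes, was at 21.0 and 22.9 CPM in B5 and at 100.03 and 119 CPM in C5 (2.32, SE 0.16, adjusted p = 0.00247). CCR2, a receptor for monocyte chemoattractants, fell from 7.83 and 8.75 CPM to 2.49 and 2.69 CPM (-1.68, SE 0.25, adjusted p = 0.0261). TGFBR2 rose by 0.75 (adjusted p = 0.0407). The calls of VEGFB, IL16, CCR2 and TGFBR2 were lost without C5 library 1 (adjusted p 0.0842, 0.607, 0.213 and 0.478) and without C5 library 2 (0.203, 0.252, 0.119 and 0.361), and that of TNFSF10 without C5 library 2 (0.283). CCR2 was also not called with the 6 clone libraries in the fit (0.0557). CCL3 was the 1 call among 27 genes of the NF-kB list (median 0.20).

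FOS and EGR1 are immediate early genes, switched on within minutes of a growth or stress signal by serum response factor and its partners. FOS was at 24.3 and 13.8 CPM in B5 and at 1.18 and 1.10 CPM in C5 (-4.06, SE 0.34, adjusted p = 0.00541). EGR1 was at 23.2 and 15.3 CPM in B5 and at 2.18 and 2.36 CPM in C5 (-3.09, SE 0.27, adjusted p = 0.00589). In both genes B5 library 1 was the highest and the C5 libraries were alike. Both calls held without any 1 library. FOSB was at 4.43 and 2.23 CPM in B5 and at 0.380 and 0.936 CPM in C5 (-2.35, SE 0.56, adjusted p = 0.0962) and did not pass. EGR2 (-0.25) and IER2 (-0.49) did not pass either, and DUSP10 rose. Of the 26 tested genes of the MAPK feedback and early response list 1 rose and 2 fell (median -0.20). The calls were 11.5% of the list, beside 2.45% of all genes tested. How the cells were handled before harvest is not given in the sources used here, and its part in these values was not tested.

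The CArG box, the site of serum response factor, was searched by its consensus on both strands in the same windows. It was present in 1.16% of all promoters. The EGR1 window (chr5:138465229-138465478, plus strand) held 2 matches, beginning 105 and 83 bases before the start and shown in capitals. The FOS window held none, and sites outside its 250 bases were not searched.
EGR1: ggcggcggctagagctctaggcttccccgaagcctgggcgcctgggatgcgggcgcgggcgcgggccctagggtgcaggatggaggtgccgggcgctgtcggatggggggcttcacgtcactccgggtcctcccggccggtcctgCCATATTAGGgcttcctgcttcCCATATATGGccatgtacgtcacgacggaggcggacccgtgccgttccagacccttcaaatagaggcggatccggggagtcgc

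The secretory side of the plasma cell program lay mostly below 0. The median of 24 plasma cell factors was -0.48, with 19 below 0. Of them 3 fell (12.5%, beside 1.19% of all genes tested) and none rose. Besides CD38 these were DERL3, which takes misfolded proteins out of the endoplasmic reticulum, and the transcriptional repressor HIC1. DERL3 was at 27.1 and 24.3 CPM in B5 and at 14.0 and 14.3 CPM in C5 (-0.86, SE 0.15, adjusted p = 0.0391). HIC1 was at 15.3 and 13.9 CPM in B5 and at 6.399 and 6.06 CPM in C5 (-1.23, SE 0.18, adjusted p = 0.0267). Without C5 library 1 the adjusted p was 0.413 for DERL3 and 0.206 for HIC1, and without C5 library 2 it was 0.329 and 0.195.

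The factors at the head of the program did not pass. XBP1, which builds the secretory apparatus, was at 712 and 869 CPM in B5 and at 500.3 and 547 CPM in C5 (-0.59, SE 0.19, adjusted p = 0.176). PRDM1 differed by -0.42 (adjusted p = 0.208), IRF4 by -0.33 (adjusted p = 0.438) and MZB1 by -0.48 (adjusted p = 0.165). In all 4 genes both C5 libraries lay below both B5 libraries, as they did in 23.7% of all genes tested. Of 37 unfolded protein response and folding genes DERL3 was the 1 call, and 36 had a log2 fold change below 0 (median -0.32).

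Immunoglobulin genes held 1 call. IGHG3 fell from 39.0 and 40.3 CPM to 19.99 and 19.7 CPM (-0.996, SE 0.13, adjusted p = 0.0195), and 10 of the 11 tested genes were below 0 (median -0.79). IGKC, the kappa light chain constant gene and the gene of the list with the most counts, was at 15931 and 22994 CPM in B5 and at 12823 and 14433 CPM in C5 (-0.51, SE 0.28, adjusted p = 0.419). JCHAIN differed by -0.94 (SE 0.28, adjusted p = 0.158), and its B5 libraries were far apart. The IGHG3 call was lost without C5 library 1 (adjusted p = 0.194) and without C5 library 2 (0.163), and heavy chain genes share reads with each other.

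Of 20 B cell genes 3 rose and 1 fell (20%, beside 2.45% of all genes tested), with a median of 0.48. Beside MS4A1 and FCRLA, SWAP70, which acts on the actin skeleton of activated B cells, rose from 6.80 and 5.43 CPM to 19.3 and 19.7 CPM (1.67, SE 0.19, adjusted p = 0.0133). PLCG2, the phospholipase behind the B cell receptor, fell from 160 and 163 CPM to 90.1 and 96.1 CPM (-0.79, SE 0.14, adjusted p = 0.0374), a call lost without C5 library 1 (0.578) and without C5 library 2 (0.392). PAX5, the factor that holds B cell identity, differed by 0.03 and was not called. CD86 (0.94), BLK (0.99) and CR2 (1.70) did not pass.

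In the BCL2 family, which venetoclax acts on, 1 gene differed. BCL2L11, which encodes the pro-death protein BIM, was at 24.0 and 24.6 CPM in B5 and at 54.5 and 56.0 CPM in C5 (1.19, SE 0.13, adjusted p = 0.0124). The libraries of each clone were nearly equal, and without C5 library 1 the adjusted p was 0.0511. In C1, on the scaling of the 3 clones, BCL2L11 was at 30.3 and 23.03 CPM, nearer to B5.

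None of the 4 tested survival genes was called. BCL2 was at 207 and 197 CPM in B5 and at 257 and 233 CPM in C5 (0.28, SE 0.15, adjusted p = 0.409). MCL1 was at 590.4 and 589.99 CPM in B5 and at 517 and 502 CPM in C5 (-0.21, SE 0.16, adjusted p = 0.569). BCL2L1, which encodes BCL-XL, was at 17.9 and 26.5 CPM in B5 and at 23.6 and 23.03 CPM in C5, so its groups overlapped (0.07, SE 0.20, adjusted p = 0.895). BCL2L2 differed by 0.06 (adjusted p = 0.897). Among the pro-death genes, PMAIP1 (-0.14), BBC3 (0.21), BAX (-0.16), BAK1 (0.12) and BMF (-0.02) were not called, and the median of the 11 tested was 0.00.

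Of the cell cycle lists, 2 S-phase genes were called, both lower in C5. RRM2, a subunit of the enzyme that makes DNA building blocks, was at 2729 and 3170 CPM in B5 and at 1085 and 946 CPM in C5 (-1.54, SE 0.21, adjusted p = 0.021). GINS3, of the replicative helicase, fell from 34.7 and 38.4 CPM to 22.4 and 19.6 CPM (-0.79, SE 0.15, adjusted p = 0.0472). The other 42 of 44 S-phase genes and all 43 mitotic genes were not called (medians -0.03 and -0.15). RRM2 and GINS3 made up 4.55% of the S-phase genes, beside 2.45% called of all genes tested. Both calls were lost without C5 library 1 (adjusted p 0.391 for RRM2 and 0.294 for GINS3) and without C5 library 2 (0.448 and 0.55).

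CCND1, the cyclin gene that t(11;14) places under the immunoglobulin heavy chain enhancer, was at 1215 and 1054 CPM in B5 and at 835 and 836 CPM in C5 (-0.44, SE 0.18, adjusted p = 0.282). MYC was at 51.9 and 55.8 CPM in B5 and at 71.5 and 74.7 CPM in C5 (0.44, SE 0.13, adjusted p = 0.158). Neither passed. Of 27 p53 targets MDM2, which degrades p53, fell from 276 and 297 CPM to 163 and 145 CPM (-0.90, SE 0.15, adjusted p = 0.0376), and GADD45B rose by 0.79 (adjusted p = 0.0399). Without C5 library 1 their adjusted p-values were 0.391 and 0.393, and without C5 library 2 0.59 and 0.241.

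Among glycolysis and hypoxia genes 1 rose and 1 fell. PFKM, a phosphofructokinase of glycolysis, rose from 53.8 and 54.9 CPM to 87.3 and 89.97 CPM (0.71, SE 0.13, adjusted p = 0.0434), and NDRG1, induced by low oxygen, fell from 82.1 and 85.5 CPM to 32.9 and 37.6 CPM (-1.25, SE 0.14, adjusted p = 0.0128). They were the 2 calls among 30 genes (6.67%, beside 2.45% of all genes tested). The PFKM call was lost without C5 library 1 (adjusted p = 0.454) and without C5 library 2 (0.503), and that of NDRG1 without C5 library 1 (0.113). ATF3, a stress-induced transcription factor, rose from 11.9 and 11.7 CPM to 21.2 and 26.5 CPM (1.02, SE 0.17, adjusted p = 0.0372), the 1 call of 28 amino acid stress genes, lost without C5 library 1 (0.109) and without C5 library 2 (0.383). None of 28 cholesterol genes was called, with 22 below 0 and a median of -0.38. SQLE, an enzyme of the pathway that makes squalene epoxide, was at 274 and 268 CPM in B5 and at 129 and 168 CPM in C5 (-0.87, SE 0.18, adjusted p = 0.0637).

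No call was made among 42 genes of oxidative phosphorylation (median -0.16), 82 ribosomal protein genes (-0.18), 39 chromatin regulators (0.20), 23 genes of the Notch and Wnt pathways (0.10), 24 of the cyclin and MYC network (0.00), 8 cancer-testis antigens (-0.22) or 19 genes around cereblon (-0.07). The ribosomal median changed sign with the B5 libraries. It was -0.48 without library 1 and 0.19 without library 2, and ribosomal protein genes took 7.60% and 10.5% of the counts in B5 and 8.10% and 8.68% in C5. CRBN, the cereblon gene on which lenalidomide acts, was at 35.1 and 38.0 CPM in B5 and at 33.2 and 32.3 CPM in C5 (-0.16, SE 0.13, adjusted p = 0.601). IKZF3, a substrate of the drug-bound ligase, was at 422 and 187 CPM in B5 and at 409 and 462 CPM in C5, so B5 library 2 alone was low (0.52, adjusted p = 0.517). Of 37 histone genes HIST1H2AC rose by 0.79 (adjusted p = 0.0361) and HIST1H2BG fell by 1.46 (adjusted p = 0.0213). Without C5 library 1 neither was called (0.402 and 0.0842), and without C5 library 2 HIST1H2AC was not (0.283), nor with the 6 clone libraries (0.137) or all 8 KMS27 libraries (0.0977) in the fit.

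**Figure D4:**
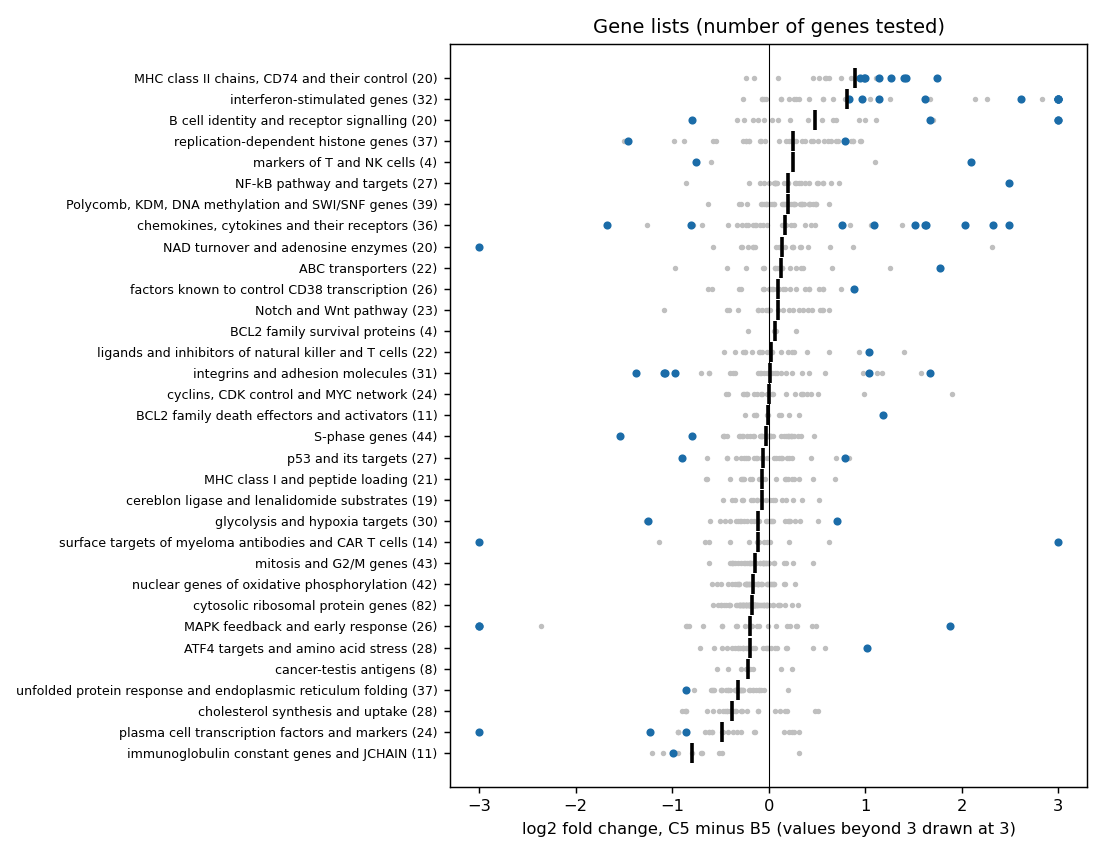
Log2 fold change of C5 over B5 for every tested gene of 33 lists, with called genes in blue, other genes in grey and the list median as a black bar. Values beyond 3 in either direction are drawn at 3. The class II and interferon lists have medians of 0.90 and 0.81 and the immunoglobulin list -0.79.

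A few genes were detected in 1 clone and nearly silent in the other. Of the called genes 14 had 3 or fewer counts over both B5 libraries and 4 had 3 or fewer over both C5 libraries. MS4A1 alone also reached 3 log2 CPM in the clone that expressed it, and the others are named after their values were seen. PYCARD, which encodes the inflammasome adaptor ASC at chr16:31201485-31203450, had 149 counts in B5 (3.31 and 3.91 CPM) and 0 in C5. Against 3 counts over the clone it was 63.8-fold lower in C5 (exact 95% lower limit 51.2, adjusted p = 0.00926). PCDH15, a protocadherin of sensory hair cells, had 203 counts in B5 and 2 in C5, a ratio of 130 (exact 95% interval 35.6 to 1084). ITIH5, of the matrix-binding inter-alpha-trypsin inhibitor family, had 1 count in B5 and 186 in C5, a ratio of 145 (25.7 to 5751).

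SV2B, a protein of synaptic vesicles, had 0 counts in B5 and 100 in C5 (adjusted p = 0.0184). Against 3 counts over the clone it was 26.0-fold higher in C5, with an exact 95% lower limit of 20.7. FRMPD4 and RAPH1 had 3 and 1 counts in B5 and 115 and 82 in C5, and RAPH1 was not called without C5 library 1 (adjusted p = 0.106). ZFHX3, a homeodomain transcription factor, was at 0.215 and 0.163 CPM in B5 and at 5.78 and 5.74 CPM in C5 (4.87, SE 0.39, adjusted p = 0.00464). RARRES3, induced by retinoids, fell from 10.4 and 13.6 CPM to 1.31 and 1.91 CPM (-2.89, SE 0.30, adjusted p = 0.0101). CD3E, a T cell receptor component, rose from 0.731 and 0.652 CPM to 3.04 and 2.93 CPM, and the T cell receptor gene TRBC2 fell from 89.6 and 101 CPM to 54.5 and 58.6 CPM. Both calls were lost without C5 library 1 (adjusted p 0.325 and 0.592) and without C5 library 2 (0.237 and 0.379).

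Some chromosomes leaned to 1 side. With 11788 genes placed by GENCODE 29 (GRCh38), the median log2 fold change was -0.24 on chromosome 8, -0.25 on chromosome 16 and -0.19 on chromosome 14, and 0.18 on chromosome 11 and 0.13 on chromosome 3. In windows of 20 Mb the medians on chromosome 8 ran from -0.41 to -0.18 and on chromosome 14 from -0.26 to -0.086. On the other 3 the shift was in part of the chromosome. Chromosome 16 had a median of -0.013 over the 175 genes of its first window and -0.38 to -0.29 in the windows beyond it. Chromosome 11 had medians of 0.22 to 0.34 up to 80 Mb and -0.050 to 0.033 beyond, and chromosome 3 had 0.29 between 20 and 80 Mb and -0.023 to 0.070 in its other windows. Over 151 windows in all the medians ran from -0.41, between 120 and 140 Mb on chromosome 8, to 0.34, on chromosome 11.

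On chromosome 16 there were 2 higher and 19 lower of 552 genes (0.362% and 3.44%). Chromosome 8 had 4 higher and 13 lower of 410 (0.976% and 3.17%), and chromosome 14 3 higher and 8 lower of 399 (0.752% and 2.01%). Chromosome 11 had 16 higher and 1 lower of 636 (2.52% and 0.157%). Chromosome 3 had both more higher and more lower calls, 18 and 9 of 679 (2.65% and 1.33%), than all genes tested (1.26% and 1.19%). TOX3, a chromatin protein on chromosome 16, was at 42.9 CPM in both B5 libraries and at 11.2 CPM in both C5 libraries (-1.93, SE 0.14, adjusted p = 0.00288), and PYCARD, ITGAL, CDH1, PLCG2 and GINS3 also lie there. Other called genes went against their chromosome's median: ZFHX3 on chromosome 16 and CDH17 on chromosome 8 rose, and RARRES3 on chromosome 11 fell. NECTIN1, an adhesion molecule on chromosome 11, rose from 72.3 and 73.7 CPM to 208 and 233 CPM (1.60, SE 0.15, adjusted p = 0.00687). It lies outside the shifted part of the chromosome, in the window between 100 and 120 Mb (median 0.033). SLA, an adaptor on chromosome 8, fell by 1.34 (adjusted p = 0.012) and TSHR on chromosome 14 by 1.25 (adjusted p = 0.0128), and without C5 library 1 both missed the threshold (0.0767 and 0.0842). DNA copy number of the clones was not analysed here, and its part in these shifts was not tested.

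**Figure D5:**
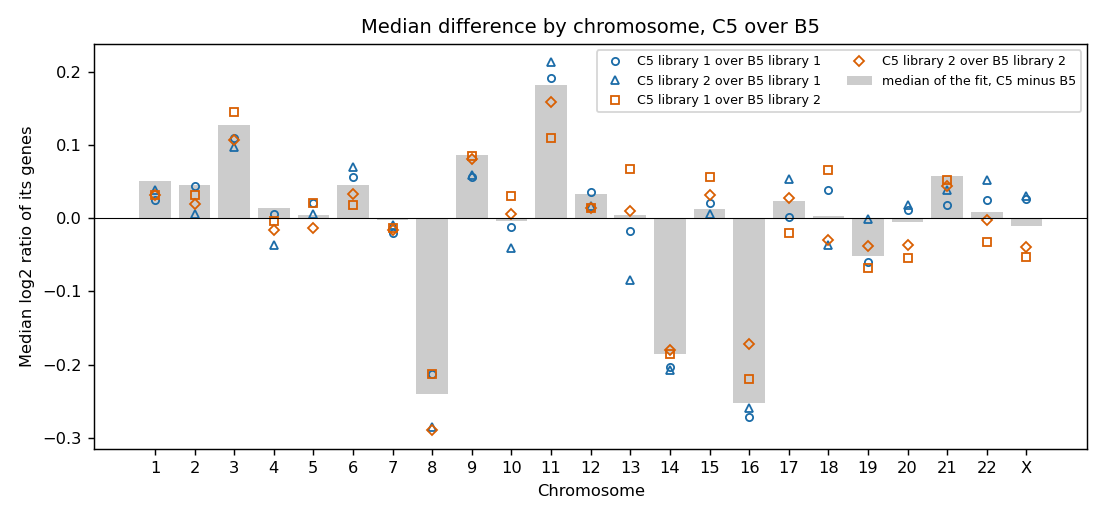
Median log2 ratio of C5 over B5 of the tested genes of each chromosome, as bars for the fit and as points for the 4 pairs of libraries, which share libraries. Bars of chromosomes 8, 14 and 16 reach -0.24, -0.19 and -0.25, and those of chromosomes 3 and 11 reach 0.13 and 0.18.

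On a scaling of the 6 clone libraries, the mean of clone C1 lay between B5 and C5 for 109 of the 169 higher and 114 of the 160 lower genes. That was 67.8% of the called genes, beside 30.6% of all genes tested. The called genes were chosen for their difference between B5 and C5, which leaves more room in between. The C1 mean lay nearer to C5 for 209 of the 329 called genes (63.5%) and nearer to B5 for 120 (36.5%). Of all genes tested the shares were 54.6% and 45.4%. HAS2 was at 4.24 and 6.39 CPM in C1 and CDH17 at 133 and 101 CPM, near the C5 levels, and COL6A3, at 20.1 and 25.0 CPM, lay between the clones. CD38, XAF1 and MYO5B (4.82 and 4.45 CPM) were near the B5 levels in C1, and MS4A1 lay between. The interferon-stimulated and class II genes that rose did not take 1 side in C1, and more of them lay nearer to B5. XAF1, IFI44, IFIT3, IFIT5, CXCL10 and TRIM22 were nearer to B5, and OAS1, OAS2 and IFIH1 nearer to C5. OAS2, at 184 and 139 CPM in C1, was above its C5 mean of 132 CPM, and IFIH1, at 66.4 and 57.1 CPM, lay between the clones. HLA-DOA (10.8 and 7.63 CPM), HLA-DMB, HLA-DRB5, HLA-DQA1 and HLA-DQA2 were nearer to B5. HLA-DQB1 (152 and 106 CPM), HLA-DOB (6.36 and 4.34 CPM) and HLA-DQB2 were nearer to C5. C1 libraries had 52615971 and 27435782 counts, and its position is a description without a test.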

How the data were processed

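Poly-A RNA libraries of KMS27 clones B5 and C5 were analysed, 2 per clone. The authors deposited a table of raw counts per gene symbol with 1 column per library. The build was hg38, per the submitters' processing notes; which aligner, counter, annotation and strand setting made the counts is not given in the sources used here. Of the 14560 genes listed, none falls short of 5 counts in 4 or more of the 8 KMS27 libraries, a filter found from the values.

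The 4 libraries were fitted in R 4.3.3 with edgeR 4.0.16. The filter filterByExpr kept 13417 genes and left out 1143, libraries were scaled by TMM, and a quasi-likelihood test (glmQLFit and glmQLFTest, 2-sided) was adjusted over all genes by Benjamini-Hochberg, with calls under 0.05. The biological coefficient of variation was 17.4%. The SE is the size of the log2 fold change divided by the square root of F. CPM are counts scaled by the TMM library sizes. With 0 counts in a clone, a fold is set against 3 counts over the clone and given with its exact 95% lower limit. With 1 to 3 counts it is a ratio with its exact 95% interval. The script was tested on simulated data.

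Genes named are the 12 largest rises and falls called, with a mean of at least 3 log2 CPM and clones that did not overlap. Also named are 25 genes chosen by name, up to 4 called genes per list by adjusted p, and genes on in 1 clone. Up to 3 called genes per chromosome described complete the rule. Beyond this rule the further called members of the interferon, class II, cytokine and adhesion lists, members that were not called and genes nearly silent in 1 clone are named after their values were seen. The comparison and the gene lists were chosen with earlier results of these data known. Positions are from GENCODE 29, and promoters, the 250 bases before the start, from RefSeq. Alternatives were DESeq2 1.42.0 and its size factors, other filters, fits with 6 or 8 KMS27 libraries, the replicate number as a block, and leaving out each library. The values of 3 genes are not reported here.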

Additional observations from a re-analysis of the deposited data

How the results depend on the processing

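The 329 calls kept their direction under every alternative that tested them, and 17 were not tested under the stricter filter. Their number was 669 (327 higher, 342 lower) with DESeq2's Wald test, 648 (337 and 311) with the 6 clone libraries in the fit and 1015 (579 and 436) with all 8 KMS27 libraries, where 57.0% of calls were higher beside 51.4% in the 4 libraries. DESeq2's size factors in edgeR gave 326, no filter 337 and the stricter filter 310. With 1 library left out the calls ran from 88 to 3813, the higher from 46 to 2032 and the lower from 42 to 1781. The cause of these changes was not tested. When a library is left out, the lone library of its clone is assumed to vary like the other clone's.

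With the replicate number as a block 1053 genes were called (553 higher, 500 lower), and 1531 (835 and 696) with the block and all 8 libraries. The numbers were not taken as a pairing: deviations of library 2 from library 1 correlated at 0.164 between the clones, over genes, and the labels say nothing of a shared batch. These deviations followed gene length in the same direction in both clones (Spearman rho -0.54 in B5 and -0.37 in C5). Whether the numbers mark a shared preparation was not tested. TNFRSF17 and SDC1 were called with the replicate block (adjusted p = 0.0122 and 0.0402).

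Class II genes higher numbered 14 with DESeq2's Wald test, 14 with the replicate block, 17 with the block and 8 libraries, and 0 to 17 with a library left out. Interferon-stimulated genes higher numbered 14 with 8 libraries, 18 with the replicate block, 15 with the block and 8 libraries, and 1 to 19 with a library left out. Of 86 called genes described, 37 were called under every alternative. With a library left out, genes that were not called changed sign within these ranges of log2 fold change: BCL2L1 -0.18 to 0.38, BCL2L2 -0.063 to 0.17, BMF -0.082 to 0.053, BAK1 -0.024 to 0.29 and IKZF1 -0.053 to 0.16.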
